A study of Mus musculus with 2 samples.

Results

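Mesp1, Mesp2, Mixl1, Gsc, Lhx1, Evx1 and Cdx2 are 7 transcription factor genes of the primitive streak and its early derivatives, described here in single cells of mouse embryoid bodies (EBs). They were chosen by symbol from the 33456 genes listed, and all 7 were found. The cells were the 1878 EB barcodes that held at least 6172 unique molecular identifiers (UMIs, each counting 1 captured RNA molecule) with at most 10% of them from mitochondrial genes. The study has 2 libraries, both from C57BL/6 mice. The EB library came from embryonic stem cells, kept on feeder fibroblasts, moved to feeder-free culture and differentiated in serum to day 4, and is labelled as favouring hemangiogenic mesoderm. The yolk sac (YS) library pooled equal numbers of E9.5 and E10.5 yolk sacs, from which about 70% of Ter119-positive (erythroid) cells were sorted away. Neither library carries a named allele or drug. Both suspensions were frozen, thawed and sorted for live cells before droplet sequencing on the 10x Genomics Chromium system.

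In the gastrulating embryo, epiblast cells move into the primitive streak, switch on T (brachyury) and leave as mesoderm or definitive endoderm. Mesp1 and Mesp2 are neighbouring basic helix-loop-helix genes: Mesp1 marks nascent mesoderm, including precursors of the heart, and Mesp2 is best known for setting segment borders in the presomitic mesoderm. Mixl1, Gsc, Lhx1, Evx1 and Cdx2 encode homeodomain proteins. Mixl1 is a streak gene needed for normal mesoderm and endoderm, Gsc and Lhx1 mark the anterior streak and the organizer, Evx1 the posterior streak, and Cdx2 the posterior body axis and, earlier, the trophectoderm. T, Kdr and Pou5f1 frame the description, T for the streak, Kdr (the VEGF receptor FLK1) for mesoderm with endothelial and blood potential, and Pou5f1 (OCT4) for pluripotent cells.

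The genes lie on 6 chromosomes. In GRCm38 coordinates (GENCODE M21) Mesp1 spans chr7:79792241-79793788 on the minus strand and Mesp2 chr7:79810727-79813439 on the plus strand, with 16938 bases between them. Mixl1 spans chr1:180693043-180697034 (minus), Gsc chr12:104471209-104473330 (minus), Lhx1 chr11:84518284-84525535 (minus), Evx1 chr6:52313498-52318378 (plus) and Cdx2 chr5:147300805-147307270 (minus). All 7 are annotated as protein-coding.

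Start-site sequences are shown for the 3 members whose window holds the T-box core and for Cdx2, whose level differed between T groups by about as much as that of Mesp1. RefSeq (GRCm38.p6) gave start-site windows, 250 bases before to 50 bases after the start, for 6 of the 7 members. Each is written 5′ to 3′ on the gene's strand, and capitals mark matches to motifs that were chosen after the sequences had been seen: the T-box core CACACCT, the TCF/LEF motif CTTTGAT and the FOXH1 motif AATNCACA.
Mesp1: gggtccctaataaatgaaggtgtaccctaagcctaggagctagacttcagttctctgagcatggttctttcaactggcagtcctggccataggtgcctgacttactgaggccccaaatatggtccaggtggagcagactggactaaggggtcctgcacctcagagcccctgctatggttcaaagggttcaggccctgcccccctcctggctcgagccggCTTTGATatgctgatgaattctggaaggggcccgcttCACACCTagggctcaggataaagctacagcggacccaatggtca
Mesp2: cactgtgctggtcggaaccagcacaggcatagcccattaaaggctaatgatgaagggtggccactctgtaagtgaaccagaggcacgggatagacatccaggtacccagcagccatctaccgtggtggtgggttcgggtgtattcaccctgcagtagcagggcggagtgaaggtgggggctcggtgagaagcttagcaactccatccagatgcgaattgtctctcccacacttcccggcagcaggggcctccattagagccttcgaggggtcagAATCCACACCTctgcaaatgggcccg
Evx1: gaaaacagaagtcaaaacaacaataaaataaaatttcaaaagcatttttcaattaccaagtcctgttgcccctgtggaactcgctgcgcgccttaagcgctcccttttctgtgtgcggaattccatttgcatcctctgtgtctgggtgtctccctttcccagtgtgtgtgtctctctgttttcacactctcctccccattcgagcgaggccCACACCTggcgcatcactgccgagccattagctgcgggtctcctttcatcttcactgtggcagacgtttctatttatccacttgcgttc
Cdx2: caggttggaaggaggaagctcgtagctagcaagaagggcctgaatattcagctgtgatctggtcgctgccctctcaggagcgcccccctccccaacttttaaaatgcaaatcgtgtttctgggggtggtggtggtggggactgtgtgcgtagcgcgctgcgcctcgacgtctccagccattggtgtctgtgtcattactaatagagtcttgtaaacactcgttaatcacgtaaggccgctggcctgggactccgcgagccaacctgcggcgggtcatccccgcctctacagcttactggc
The windows are chr7:79793541-79793840 for Mesp1, chr7:79810477-79810776 for Mesp2, chr6:52313248-52313547 for Evx1 and chr5:147307200-147307499 for Cdx2. CACACCT begins 6 bases into the Mesp1 transcript, 28 bases into the Mesp2 transcript and 39 bases upstream of the Evx1 start. CTTTGAT lies 31 bases upstream of the Mesp1 start. Positions are from the RefSeq start, which for Mesp1 lies 198 bases inside the GENCODE gene given above, so both Mesp1 matches fall within that gene. For Cdx2 it lies 21 bases inside, and for Mesp2 and Evx1 the starts are the same base. The AATNCACA match of Mesp2 overlaps its CACACCT match. Searched on both strands, CACACCT is in 5.84% of 32851 mouse windows of the same length, CTTTGAT in 3.73%, AATNCACA in 3.60%, the homeobox motif TAATTA in 5.29% and the SMAD motif GTCTAGAC in 0.213%. The last pair matched in none of the 6 members, and the Cdx2, Gsc and Lhx1 windows held none of the 5 motifs. These matches describe letters in a window, and binding was not measured.

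The 1878 EB cells held 50691307 UMIs, with a median of 25547 per cell (range 6233 to 99304), and the 775 YS cells had a median of 28461. Each group is 1 library, so no difference has a replicate check, no test was run, and all intervals are 95% intervals of counting error only. The libraries share 2 cell barcodes. Scrublet marked 3 of 1878 cells as doublets (0.160%, where 1.5% was expected), so most doublets may remain and can add to overlaps of genes. Mean empty EB droplets held 252 UMIs, and the share of cells that such free RNA alone would give is printed beside each gene's share of all EB cells. The labelled hemangiogenic bias can be set beside the cells: T was seen in 75.8% of them (free RNA 3.83%), Kdr in 41.2% (1.39%) and Pou5f1 in 92.2% (15.8%), and the 2 clusters led by hemangiogenic markers (described below) hold 116 and 84 cells.

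All 7 genes were higher in EB cells than in the yolk sac, where each stood at 0 to 0.786 counts per 1000000 UMIs (CPM). Mesp1 had 25122 UMIs in EB cells, 496 CPM (489 to 502), and 2 UMIs in 1 YS cell. Mixl1 had 9337 UMIs (184 CPM) in EB and 0 in the yolk sac (0 of 775 cells, with an upper limit of 0.475%). Against a floor of 3 UMIs over the library its EB level was 1485-fold higher, and the lower limit of the ratio was 1207. Mesp2 had 1663 UMIs (32.8 CPM) in EB and 1 in YS, Gsc 2049 (40.4 CPM) and 2, and Evx1 3489 (68.8 CPM) and 2. The EB over YS ratios were 5993 for Mesp1 (1659 to 49486), 793 for Mesp2 (142 to 31356), 489 for Gsc (135 to 4039) and 832 for Evx1 (230 to 6875). Lhx1 and Cdx2 kept a few yolk sac molecules: Lhx1 had 2585 UMIs (51.0 CPM) in EB and 16 in YS, 7 of them in 1 cell, for a ratio of 77.1 (47.4 to 135), and Cdx2 had 1886 (37.2 CPM) and 19, spread over 12 cells, for a ratio of 47.4 (30.2 to 78.8). Thus 7 of 7 members were more than 2-fold higher in EB, where 18.5% of all 15621 genes compared were.

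The share of cells with at least 1 UMI depended on depth. Mesp1 was seen in 67.5% of EB cells (65.3 to 69.6), in 52.5% after each cell had been thinned at random to 6000 UMIs, and free RNA alone would give 10.0%. Mixl1 was seen in 67.1% (thinned 44.8%, free RNA 4.33%) and Evx1 in 67.8% (thinned 30.1%, free RNA 1.34%). Lhx1 was seen in 43.6% (thinned 19.9%, free RNA 1.05%), Gsc in 42.2% (18.4%, 1.08%), Mesp2 in 29.0% (13.0%, 0.494%) and Cdx2 in 27.8% (13.8%, 0.474%). In the yolk sac the shares ran from 0% for Mixl1 to 1.55% for Cdx2. Every member's EB share was above its free RNA share. Evx1 was spread widely at few molecules per cell, and Cdx2 and Mesp2 were concentrated: the 94 cells (5%) with most UMIs of a gene held 19.8% of all Evx1 UMIs, 30.3% of Mesp1, 46.6% of Mesp2 and 48.6% of Cdx2.

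Ordered from high to low Pou5f1, the genes peaked in different cells. T was highest in the first of 5 equal groups, at 358 CPM, and lowest in the last, at 41.3 CPM, and Kdr ran the other way, from 5.15 to 158 CPM. Between them, Mesp1 was 423, 765, 686, 428 and 122 CPM from group 1 (highest Pou5f1) to group 5 (lowest). It was highest in groups 2 and 3, and groups 1 and 4 did not differ beyond their intervals. Mesp2 had the same order of groups at its peak, with 34.7, 56.3, 44.0, 18.9 and 4.8 CPM. Cdx2 was 45.1, 48.6, 38.0, 30.8 and 19.99 CPM, with groups 1 and 2 overlapping in their intervals, as did groups 1 and 3 and groups 3 and 4.

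The other homeobox genes were highest in the middle group, group 3. Its intervals overlapped those of group 4 for Mixl1 and of group 2 for Lhx1, Gsc and Evx1. Mixl1 was 130, 195, 226, 212 and 161 CPM, so that its lowest Pou5f1 group still held 71.5% of its peak, where Mesp1 held 15.9%. Lhx1 was 29.1, 65.9, 74.1, 57.3 and 27.1 CPM and Gsc 31.9, 47.0, 50.8, 41.7 and 29.8 CPM, both highest in group 3. Without the 379 cells of the naive pluripotent-like, definitive endoderm-like and epithelium-like clusters, the log2 ratio of group 5 over group 1 went from -0.10 to -1.22 for Lhx1, past 2-fold, and from -0.10 to -0.82 for Gsc. Evx1 varied least, between 55.7 and 80.1 CPM. The mean position along the 5 groups, weighted by level, was 2.20 for T, 2.39 for Mesp2, 2.61 for Mesp1, 2.63 for Cdx2, 2.95 for Lhx1, Evx1 and Gsc, 3.09 for Mixl1 and 4.14 for Kdr. With 10 groups the peaks were in group 1 for T, 3 for Mesp2, 4 for Mesp1 and Cdx2, 5 for Gsc, 6 for Lhx1, Evx1 and Mixl1, and 9 for Kdr. Except for Lhx1, each of these peaks overlapped another group in its interval, as for Mesp1 at 772 CPM in group 4 and 759 in group 3. The order is by Pou5f1 within 1 day and is not an order in time. Median depth also differed, from 29617 UMIs in group 1 of 5 to 22445 in group 5.

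**Figure D1:**
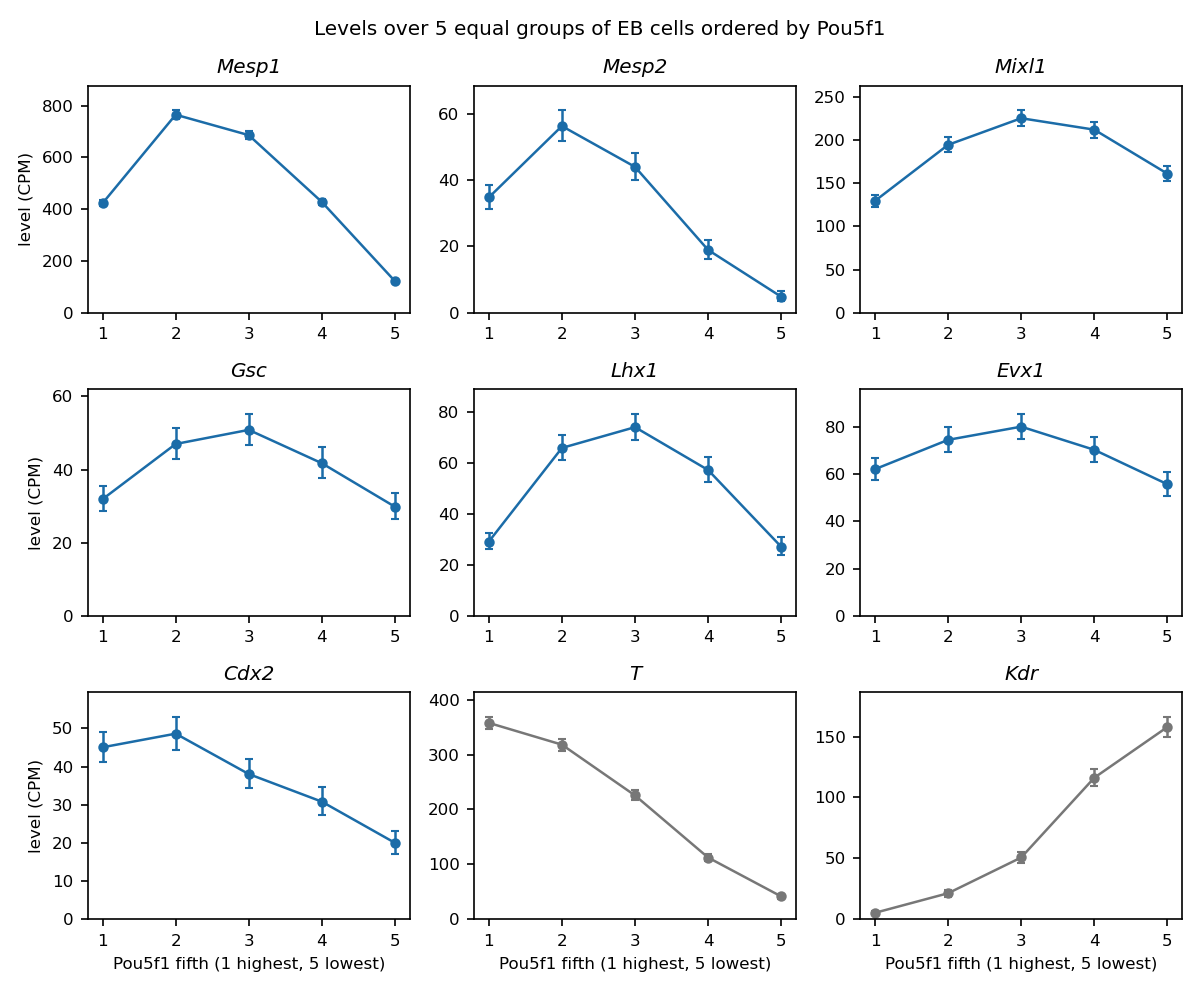
Level in CPM (y axis, from 0) of the 7 genes, T and Kdr in 5 equal groups of EB cells ordered by Pou5f1 (x axis, 1 highest to 5 lowest). Points are CPM of summed UMIs and bars 95% counting intervals. Mesp1 peaks at 765 CPM in group 2. Mixl1 is highest at 226 CPM in group 3, whose interval overlaps that of group 4. T and Kdr run in opposite directions.

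Between the lowest and the highest Pou5f1 group, 3 of 7 members were at least 2-fold lower and 0 higher, where 9.81% of all 12850 genes compared were lower and 8.25% higher. Mesp1 was 3.48-fold lower (3.25 to 3.72), Mesp2 7.23-fold lower (5.27 to 10.2) and Cdx2 2.25-fold lower (1.90 to 2.69). The Cdx2 difference rested on the grouping: its log2 ratio of -1.17 was -0.38 in thinned cells, -0.91 with 3 groups and -0.67 with 10. The median log2 ratio was -0.16 over the 7 members and 0.05 over all genes.

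Grouped by T, Mesp1, Mesp2 and Cdx2 differed by 4.16 to 5.52 times between cells without T and cells richest in T, and the other 4 genes differed by less than 2-fold. The groups were 455 cells with no T UMI and 3 groups of 474 or 475 T-positive cells ordered by T level, called low, mid and high here. Mesp1 was 148 CPM without T and 418, 724 and 615 CPM in the low, mid and high groups, so it peaked below the highest T. Mesp2 was 8.97, 20.4, 47.6 and 49.5 CPM, and its mid and high groups did not differ beyond their intervals. Cdx2 was 16.7, 19.9, 38.4 and 70.4 CPM, and its groups without T and at low T did not differ beyond their intervals. Of the 7 genes, Cdx2 alone was higher in the high than in the mid T group beyond the intervals.

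Mixl1 was 116, 188, 210 and 206 CPM over the same groups, a step up from no T to low T and little beyond it. Evx1 was 46.6, 64.7, 85.4 and 73.4 CPM, Gsc 30.2, 41.0, 46.4 and 41.6 CPM, and Lhx1 39.1, 51.9, 61.8 and 48.1 CPM. All 3 were highest in the mid group, although for Gsc the mid and high intervals overlapped. High over no T, the ratios were 4.16 for Mesp1 (3.94 to 4.40), 5.52 for Mesp2 (4.43 to 6.96), 4.21 for Cdx2 (3.57 to 4.98), 1.77 for Mixl1, 1.58 for Evx1, 1.38 for Gsc and 1.23 for Lhx1. Thus 3 of 7 members were at least 2-fold higher, where 5.32% of 13071 genes were, and 0 lower, where 7.38% were. At 1.5-fold 5 members were higher and 0 lower, where 9.92% and 14% of all genes were. The members' median log2 ratio was 0.83 and that of all genes -0.04. Cells without T were shallower (median 21077 UMIs, against 25979 to 27635 in the T groups), and thinning lowered the share of cells with T to 53.5%. In thinned cells regrouped by T, the log2 ratio of Mesp1 went from 2.06 to 0.91, that of Mesp2 from 2.47 to 1.08 and that of Cdx2 from 2.07 to 1.46, so Mesp1 dropped under 2-fold.

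Grouped by Kdr, Cdx2 was lower at every step, Mesp2 and Mesp1 were highest in cells with little Kdr, and Mixl1 was higher at every step. The groups were 1104 cells without Kdr and 3 groups of 258 Kdr-positive cells. Their median depths from no to high Kdr were 24568, 30668, 27144 and 23154 UMIs, so the low group was the deepest. Cdx2 was 54.5 CPM without Kdr and 28.2, 10.4 and 4.98 CPM in the low, mid and high groups, 10.9-fold lower in the last than in the first (7.72 to 16.1). Mesp2 was 36.6, 45.1, 24.2 and 9.66 CPM, 3.79-fold lower (2.93 to 4.98). Mesp1 was 494, 653, 493 and 290 CPM, 1.71-fold lower (1.63 to 1.79).

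Mixl1 was 140, 215, 238 and 272 CPM, 1.94-fold higher in the Kdr-high group (1.83 to 2.05). It was the only one of the 7 genes to be highest where Kdr was highest. Lhx1 was 46.1, 61.5, 66.4 and 40.2 CPM. Gsc (36.8 to 42.5 CPM) and Evx1 (65.2 to 80.4 CPM) differed little between Kdr groups, and their ratios of 0.96 (0.83 to 1.10) and 1.08 (0.97 to 1.197) span 1. Thus 2 of 7 members were at least 2-fold lower, where 11.6% of 13700 genes were, and 0 higher, where 4.83% were. At 1.5-fold 1 member, Mixl1, was higher and 3 were lower, where 10.4% and 18.2% of all genes were. The median log2 ratio was -0.20 over the members and 0.01 over all genes. In thinned cells Mesp2 came to a log2 ratio of -0.70 in place of -1.92 and was no longer past 2-fold. Without the 379 cells of the naive pluripotent-like, definitive endoderm-like and epithelium-like clusters, Mesp1 was also past 2-fold, at -1.29 in place of -0.77.

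**Figure D2:**
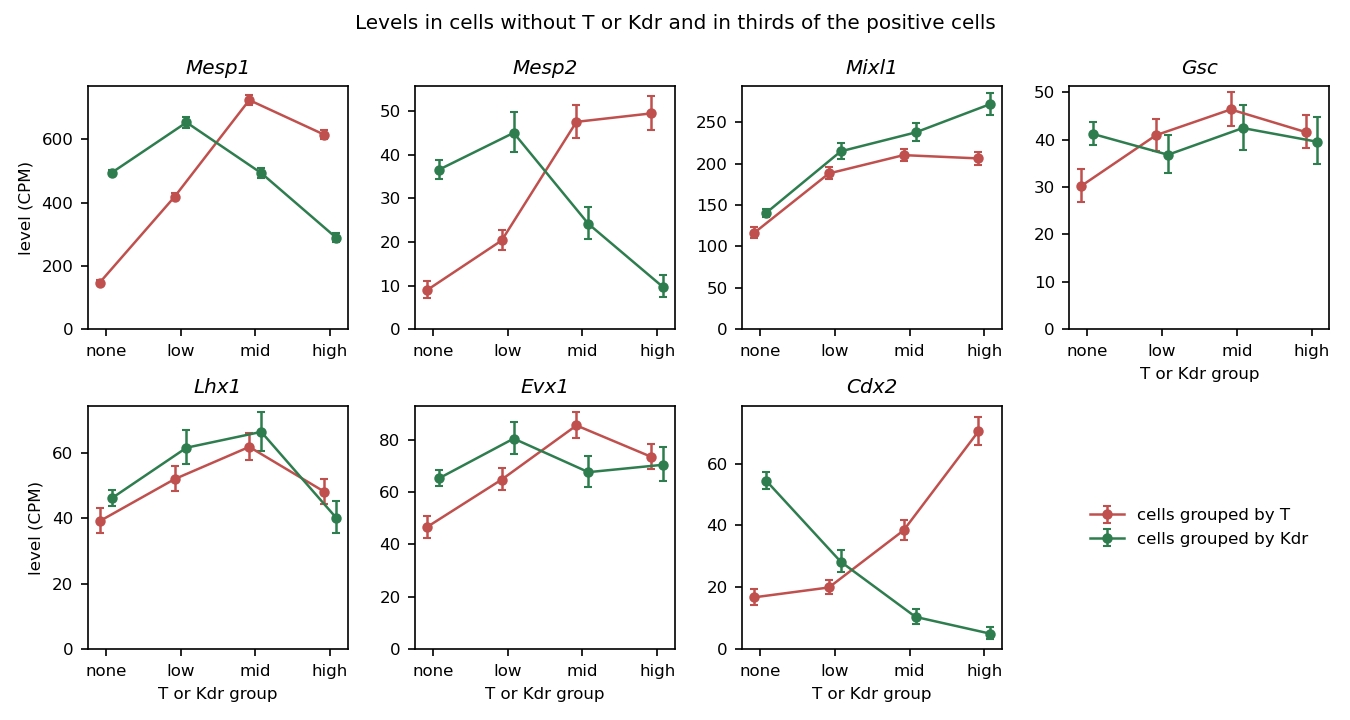
Level in CPM (y axes, from 0) of the 7 genes in cells without T (red) or Kdr (green) and in low, mid and high groups of the positive cells (x axis), with 95% counting intervals as bars. All 7 genes are lowest without T, although for Cdx2 the intervals without T and at low T overlap. Cdx2 is lower in each next Kdr group, and Mixl1 is highest in the Kdr-high group at 272 CPM.

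Split by both genes, 233 cells held neither T nor Kdr, 871 T alone, 552 both and 222 Kdr alone. Their median depths were 18909, 25738, 29203 and 24345 UMIs in that order. Mesp1 was 94.5 CPM with neither, 574 with T alone, 594 with both and 193 with Kdr alone, and T alone and both did not differ beyond their intervals. Mesp2 was 8.14, 42.3, 34.0 and 9.66 CPM in the same order. Cdx2 was 28.1, 59.8, 18.5 and 7.11 CPM, highest with T alone. Mixl1 was 37.9, 161, 256 and 183 CPM, highest in cells with both. Lhx1 (39.9, 47.3, 63.0 and 38.5 CPM) and Evx1 (37.5, 70.7, 79.4 and 54.3 CPM) were also highest with both. Gsc was 34.9, 42.4, 43.7 and 26.3 CPM, and only its Kdr-alone cells stood below the T-alone and double-positive cells.

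Kdr alone against T alone, 3 of 7 members were at least 2-fold lower and 0 higher, where 10.8% of 13328 genes were lower and 5.36% higher. Mesp1 was 2.98-fold lower (2.80 to 3.17), Mesp2 4.37-fold lower (3.32 to 5.88) and Cdx2 8.41-fold lower (6.12 to 11.9). Mixl1 was 1.14-fold higher (1.06 to 1.22). In thinned cells the log2 ratio of Mesp1 was -0.73 in place of -1.57, under 2-fold, and those of Mesp2 (-1.30) and Cdx2 (-2.55) stayed past it. The median log2 ratio was -0.69 over the members and 0.01 over all genes.

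Crossing the T and Kdr groups showed that Mixl1 differed with Kdr also where T was not seen. In cells without T, Mixl1 was 37.9 CPM without Kdr and 114, 155 and 250 CPM in the Kdr low, mid and high groups (233, 43, 78 and 101 cells). Mesp1 in the same cells was 94.5, 139, 254 and 168 CPM, and Cdx2 28.1, 17.1, 6.93 and 1.38 CPM. At mid T, Mesp1 was 711 CPM without Kdr, 856 at low Kdr, its highest value in the grid, and 494 at high Kdr. Cdx2 reached its highest value of 75.7 CPM in the 410 T-high cells without Kdr. Only 5 cells were both T-high and Kdr-high.

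**Figure D3:**
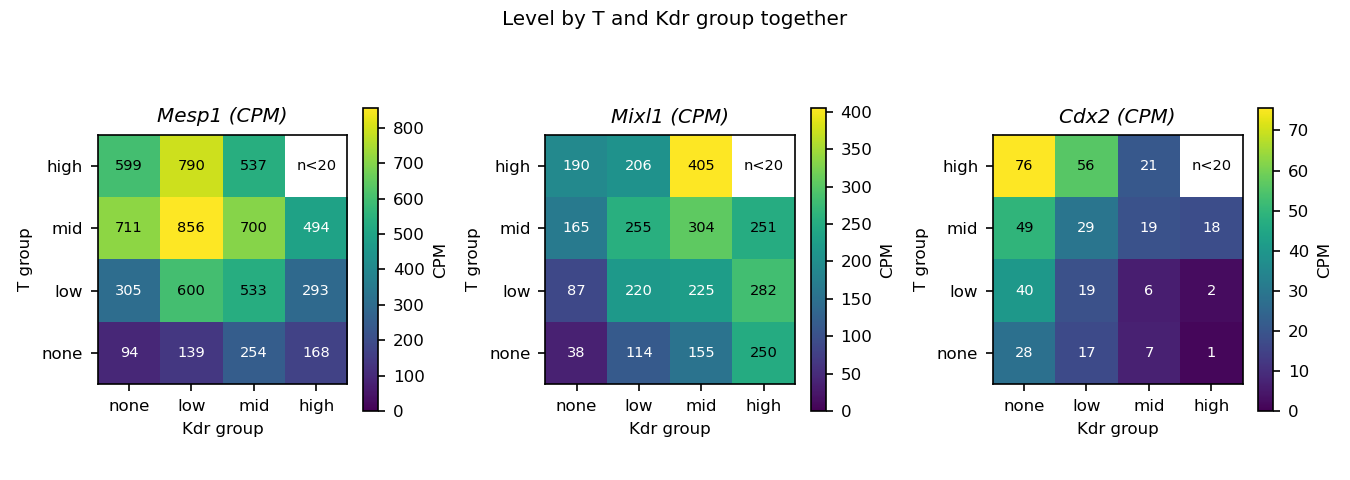
Levels of Mesp1, Mixl1 and Cdx2 in CPM (colour and printed value) by Kdr group (x axis) and T group (y axis) together, with the square of fewer than 20 cells left blank. Mesp1 is highest at mid T and low Kdr (856 CPM), Mixl1 at high T and mid Kdr (405 CPM in 21 cells), and Cdx2 at high T without Kdr (75.7 CPM).

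Many cells held several of the genes at once. As counted, 119 cells (6.34%) held none of the 7 and 48 (2.56%) held all, and after thinning 19.2% held none and 1 cell held all. Mesp1 and Mixl1 were seen together in 52.0% of cells (thinned 30.6%), Mesp1 and Mesp2 in 27.5% (12.2%) and Gsc and Lhx1 in 25.2% (6.55%). The shares with and without a gene in the next paragraphs are of thinned cells, so that depth is equal.

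Mesp2 was found mostly within Mesp1-positive cells. Mesp1 was seen in 93.9% of cells with Mesp2 (90.1 to 96.5) and in 46.3% of cells without it (43.9 to 48.7). Seen from the other gene, Mesp2 was in 23.3% of cells with Mesp1 (20.7 to 26.1) and in 1.7% of those without (0.94 to 2.8). Mixl1 was in 58.2% of cells with Mesp1 and 29.9% of cells without, and Mesp1 in 78.6% of cells with Lhx1 and 46.0% without. Kdr shares were close with and without Mesp1: it was in 24.9% of cells with Mesp1 (22.3 to 27.8) and 24.3% of those without (21.5 to 27.3).

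The anterior streak genes also shared cells. Lhx1 was in 35.5% of cells with Gsc (30.5 to 40.8) and 16.3% of cells without (14.5 to 18.3), and Mixl1 in 63.9% and 40.5%. Cdx2 was less frequent with Gsc: it was in 7.5% of cells with Gsc (5.0 to 10.8) and 15.2% of those without (13.4 to 17.1). For Lhx1 the intervals overlapped, with Cdx2 in 9.9% of cells with Lhx1 (7.1 to 13.4) and 14.8% without (13.0 to 16.6). Kdr was in 10.8% of cells with Cdx2 (7.3 to 15.2) and 26.9% of those without (24.7 to 29.1), whereas T was in 74.1% and 50.2%. Mesp1 was in 52.1% of cells with Cdx2 and 52.6% of those without. Across the 1878 thinned cells, which share 1 library, the correlation was 0.40 for Mesp1 with Mesp2, 0.29 for Mesp1 with Lhx1, 0.26 for Mesp1 with Mixl1 and 0.24 for Gsc with Lhx1, all as descriptions.

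**Figure D4:**
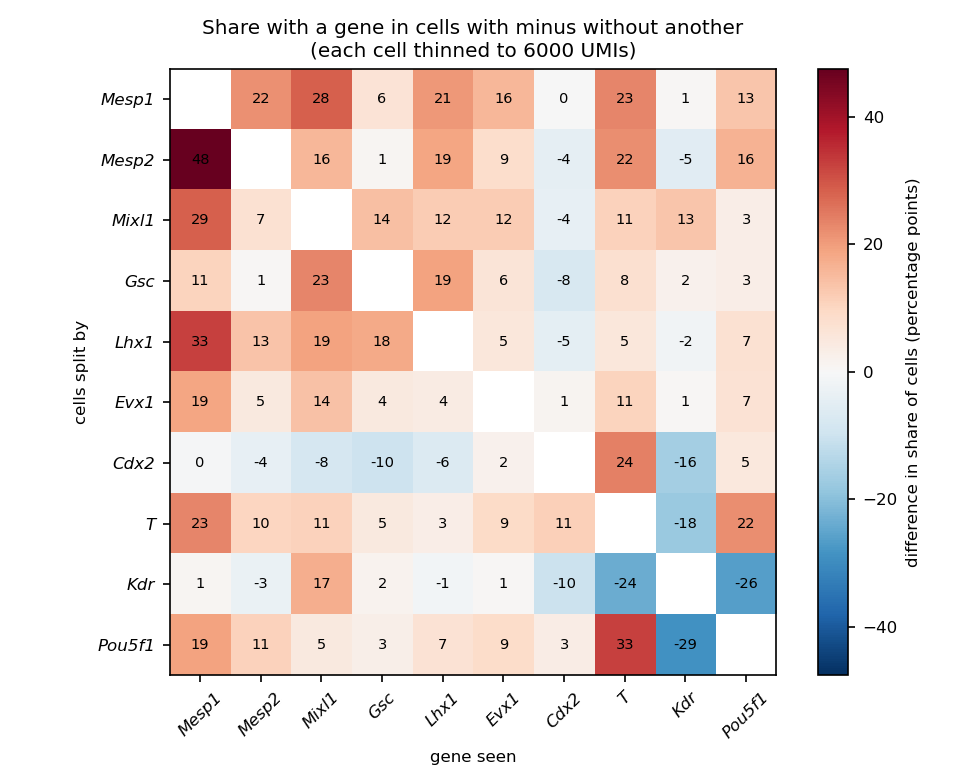
Difference, in percentage points, between the share of cells with a gene (column) among cells with and without another gene (row), with every cell thinned to 6000 UMIs. Red marks genes seen together more often and blue less often. Mesp1 in Mesp2 cells is the largest difference between members (93.9% against 46.3%). The Cdx2 row is blue for Kdr, Gsc, Mixl1, Lhx1 and Mesp2, with overlapping intervals for Mixl1, Lhx1 and Mesp2.

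Ordered by Mesp1 itself in cells as counted, Mesp2, Lhx1, Mixl1 and Evx1 were higher at each step. Over 611 cells without Mesp1 and groups of 423, 422 and 422 cells with low, mid and high Mesp1, Mesp2 was 1.96, 5.65, 38.6 and 91.5 CPM. Lhx1 was 16.9, 22.5, 71.4 and 101 CPM. Mixl1 was 93.3, 182, 226 and 256 CPM, with its widest step between no Mesp1 and low Mesp1, and Evx1 42.8, 62.4, 81.8 and 94.3 CPM. Cdx2 was 34.9, 47.7, 44.7 and 22.4 CPM, lowest where Mesp1 was highest. Of the Mesp1-high cells, 247 of 422 (58.5%, 53.7 to 63.3) held no Kdr UMI, against 64.2% (60.2 to 68.0) of cells without Mesp1, whose median depth was lower (23284 against 27036 UMIs). The Kdr level ran the other way, at 44.4 CPM (40.8 to 48.3) in Mesp1-high cells and 68.6 CPM (64.4 to 72.9) without Mesp1.

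The cells were clustered with the 7 genes, T, Kdr and Pou5f1 left out of the clustering genes, which gave 12 clusters. Correlated genes remained in the clustering, so the levels by cluster are descriptions. A cluster was named after a marker list when at least 3 of the list's markers were 2-fold enriched there, the list's mean log2 difference was at least 0.5 and at least 1 marker was among its 10 leading genes. Clusters with no such list stay unnamed. Where several lists met the rule, the one with most markers among the leading genes was taken, then the highest mean. Cluster 1, named cardiac and lateral mesoderm-like, had 5 of 12 markers of that list enriched (mean 0.85). It also met the rule for allantois and extraembryonic mesoderm (3 of 10 markers, mean 0.73), with 2 leading genes from each list.

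Mesp1 and Mesp2 were highest in 2 unnamed clusters. Cluster 2 (192 cells), led by Dll3, Hoxb1 and Rspo3, had 1157 CPM of Mesp1 (1127 to 1187) and 84.9 CPM of Mesp2. Cluster 0 (331 cells), led by Lefty2, Frzb and Dlc1 with 4 of 12 primitive streak markers enriched (Sp5, Tdgf1, Snai1 and Lefty2) but a list mean of 0.45, had 1096 CPM of Mesp1 (1073 to 1119) and 75.3 CPM of Mesp2, and every one of its cells held Mesp1. The Mesp2 intervals of the 2 clusters overlapped. Cluster 4, unnamed and led by Tagln and Tmsb4x, came next with 794 CPM of Mesp1, at the deepest median of 37244 UMIs per cell. Mesp1 was lowest in the naive pluripotent-like cluster 6 (34.0 CPM) and in the hemangiogenic progenitor-like cluster 10 (20.3 CPM), led by Lmo2, Gadd45g and Phlda1, with Egfl7, Tal1 and Fli1 among its 10 leading genes. In the definitive endoderm-like cluster 7, the 5 of 122 cells richest in Mesp1 held 77.0% of its UMIs, and the 5 richest in Mesp2 held all 22 of its UMIs.

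The 2 clusters that share most Mesp1 differed in the other genes. Lhx1 was 145 CPM in cluster 0 and 62.0 in cluster 2, Mixl1 341 and 163, and Gsc 76.4 and 27.2, whereas Cdx2 was 7.46 CPM in cluster 0 (5.71 to 9.58) and 54.4 in cluster 2 (48.1 to 61.4). Evx1 was 92.6 and 87.7 CPM, within the intervals of each other.

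Mixl1 was highest in the hemangiogenic progenitor-like cluster 9, led by Etv2, Lmo2 and Exoc3l, at 368 CPM (347 to 389), and in cluster 0 at 341 CPM (329 to 354). It was 46.0 CPM in the other hemangiogenic progenitor-like cluster, 10. Kdr was 220 CPM in cluster 9 and 228 in cluster 10, so clusters alike in Kdr held unlike Mixl1. Evx1 (85.5 and 35.1 CPM), Gsc (67.0 and 10.4 CPM), Lhx1 (40.1 and 5.45 CPM) and Mesp1 (260 and 20.3 CPM) were likewise higher in cluster 9 than in cluster 10, and Cdx2 was low in both (3.44 and 5.45 CPM).

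Gsc was highest in the definitive endoderm-like cluster 7, led by Trh and Sox17, at 87.8 CPM (76.8 to 99.9). Cluster 0 (76.4 CPM), the epiblast-like cluster 5 (74.0 CPM) and cluster 9 (67.0 CPM) followed, with intervals that overlapped from one to the next. Lhx1 in cluster 7 was 77.1 CPM, below cluster 0. Evx1 was the most even, from 27.7 CPM in the naive pluripotent-like cluster to 98.7 CPM in unnamed cluster 11, led by Tgfb2, Dlk1 and Hand1, and its 5 highest clusters (11, 0, 2, 9 and 4) overlapped from one to the next.

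Cdx2 was highest in the germ cell-like cluster 3 (157 cells), at 181 CPM (168 to 195) and in 82.2% of cells (57.3% thinned). This cluster had 4 of 8 germ cell markers enriched, with Dnd1 and Ifitm3 among its leading genes after Lefty1 and Sprr2a3, and the highest T of all clusters, at 509 CPM. Cluster 11 followed with 110 CPM (96.3 to 125), where 5 cells held 33.2% of the Cdx2 UMIs, and cluster 2 with 54.4 CPM. Cdx2 was lowest in clusters 7 (3.05 CPM), 9 (3.44 CPM) and 10 (5.45 CPM).

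**Figure D5:**
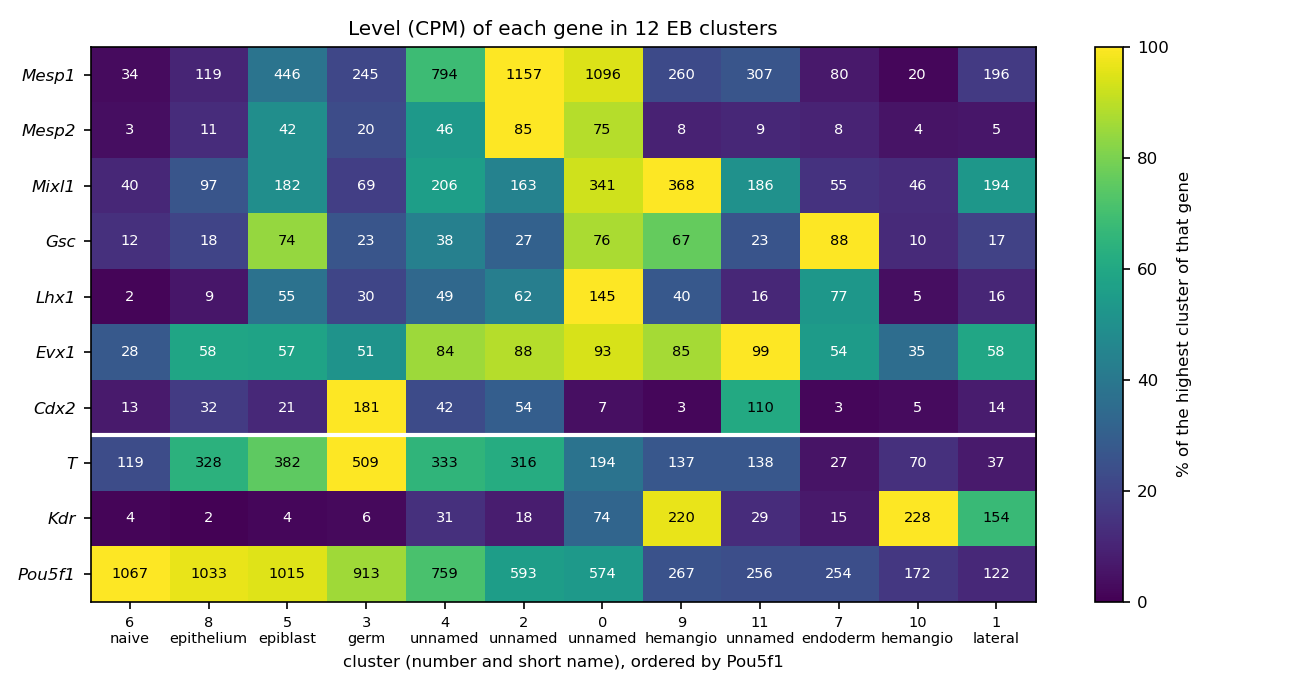
Level in CPM (printed) of the 7 genes, T, Kdr and Pou5f1 in 12 EB clusters ordered by Pou5f1 from left to right, with colour giving the percent of each gene's highest cluster. Mesp1 and Mesp2 are highest in clusters 2 and 0, Mixl1 in 9 and 0, Cdx2 in 3 and 11, and cluster 10, with Kdr at 228 CPM, is among the 3 lowest for each of the 7.

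Some of these relations were also seen among cells of the same cluster. Mesp1 was higher in cells with T than in cells without in 6 of the 6 clusters with at least 20 cells on each side, with all 6 intervals above 1. The ratio was 1.51 in cluster 0 (1.39 to 1.63) and 2.58 in the cardiac and lateral mesoderm-like cluster 1 (2.30 to 2.90). The intervals leave out the spread between cells, and in some clusters few cells carried the counts. The 5 richest cells held 79.2% of the Mesp1 UMIs in cluster 6, 77.0% in cluster 7 and 58.5% in cluster 10. Cdx2 was lower in cells with Kdr in 5 of 5 clusters, with 4 intervals below 1. Cdx2 in cluster 1 was 9.28 CPM with Kdr and 52.3 CPM without, and 5 cells held 40.4% of the 104 Cdx2 UMIs of that cluster. Mixl1 was higher with Kdr in 4 of 5 clusters but with intervals above 1 in 2, clusters 1 (209 against 70.6 CPM) and 11 (284 against 136 CPM), and below 1 in cluster 4. These splits set cells with any Kdr against cells with none, so the lower Mesp1 of Kdr-high cells was not examined within clusters. Clusters 9 and 10, highest in Kdr, had fewer than 20 cells without Kdr and were not among the 5. Mesp1 was higher with Kdr in 3 of 5 clusters, with 3 intervals above 1 and 2 below. It was 216 CPM with Kdr and 29.2 CPM without in cluster 1, and 561 and 979 CPM in cluster 4. Cdx2 was higher with T in 5 of 6 clusters, with 2 intervals above 1 and 1 below, in cluster 1. Clusters 7, 9 and 10 held only 8, 11 and 11 Cdx2 UMIs, and the cells without T of clusters 9 and 10 held none. An interval above 1 was that of cluster 10, where 5 cells held 90.9% of the Cdx2 UMIs. Clusters 3, 11 and 2, highest in Cdx2, had fewer than 20 cells without T and were not among the 6. In thinned cells Mesp2 was more frequent in cells with Mesp1 in 7 of 7 clusters, with intervals apart in 2. Clusters 0 and 2, highest in both genes, had fewer than 20 cells without Mesp1 and were not among the 7. Lhx1 was more frequent in cells with Gsc in 6 of 7 clusters, with intervals apart in 0.

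The genes whose levels across the 12 clusters were most like each member's were ranked by Pearson's correlation of log2(CPM + 20) among 3165 genes. The points share 1 library, so the values are descriptions. For Mesp1 they included Efna3 (0.97) and Itgb3bp (0.94), and for Mesp2 they were Dll3 (0.90), Mesp1 (0.88) and Efna3 (0.87). Frzb, a secreted WNT inhibitor, led for both Lhx1 (0.95, followed by Hsd17b10 and Ing2) and Gsc (0.89, followed by Lhx1 at 0.86 and BC005561). Rab34 (0.91), Oaz1 and Srsf9 led for Mixl1, and Pcbp2 (0.94), Mrps6 and Tead2 for Evx1. For Cdx2 they were Isg15 (0.95), Psmb8 (0.95), both known as interferon-responsive genes, and Laptm4a (0.94), all highest in cluster 3. Oaz1 differed little in level (1231 to 1545 CPM), so likeness of pattern is not likeness of size.

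Other genes of the pathway give the setting for the split into T alone and Kdr alone cells. The share of all genes at least 2-fold higher in Kdr alone cells was 5.36%, and of those lower 10.8%, and the median log2 of all genes was 0.01. Among 8 T-box and streak factors 1 was at least 2-fold higher in Kdr alone cells and 4 were lower (list median log2 -0.97): Tbx3 was 6.90-fold higher (6.04 to 7.90), Eomes, a T-box gene of the anterior streak, 1.16-fold higher, and Sp8 7.33-fold lower. Of 10 streak ligands and receptors 2 were higher and 6 lower (median -2.05). Fgf3 was 4.76-fold higher and Bmp4 4.68-fold higher, whereas Wnt8a was 16.1-fold lower (6.23 to 59.6) and Nodal 10.6-fold lower (5.10 to 26.6). Of 8 ligand inhibitors (median -1.19) 1 was higher, the WNT inhibitor Dkk1 at 5.13-fold, and 5 lower, with the Nodal inhibitor Lefty1 at 12.5-fold and the activin-binding Fst at 9.83-fold, while Sfrp1 had a ratio of 0.87.

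Of 6 anterior streak and endoderm genes with enough UMIs (8 listed, median 0.46), 1 was higher and 2 were lower: Hhex had a ratio of 2.01, Sox17 1.52, Foxa2 0.27 and Otx2 0.32. Of 10 genes of mesoderm leaving the streak (12 listed, median 1.88), 7 were higher and 1 lower, from Foxf1 at 9.55-fold and Tbx20 at 7.82-fold higher to Lgr4 at a ratio of 0.87 and Isl1 at 0.37. Of 8 presomitic genes (9 listed, median -1.21), 0 were higher and 5 lower, with Dll1 at 0.19, Hes7 at 0.21, Lfng at 0.44 and Rspo3 at 0.85. Mesp2, itself a presomitic gene, was among the members lower there. Of 7 posterior homeobox genes (10 listed, median -0.57), 2 were higher and 2 lower: Hoxd1 was 10.55-fold higher (6.25 to 18.4) and Hoxb2 2.52-fold, whereas Cdx1, a caudal gene like Cdx2, was 4.62-fold lower (2.38 to 10.3) and Hoxb1 2.72-fold lower. All 7 hemangiogenic genes with enough UMIs (8 listed, median 3.09) were higher, from Etv2 at 3.80-fold and Gata2 at 6.48-fold to Fli1 at 24.1-fold and Tal1 at 24.8-fold. Many of these genes are also cluster markers, and their part in the members' differences was not tested.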

How the data were processed

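RNA of single cells was measured in 1 EB and 1 YS library. The authors deposited raw UMI counts per gene and barcode, not filtered to cells. They used mm10, per the submitters' processing notes, and which aligner or counter was used is not given in the sources used here. Barcodes were kept as cells by a minimum total of 6172 UMIs (EB) or 6537 UMIs (YS), set for the 3000 largest totals as 10% of their 99th percentile, a minimum of 200 genes and a mitochondrial share of 10% or less. Doublets were kept. Counts were summed over cells and scaled to CPM. With 1 library per group no test was run. Intervals are exact Poisson (levels), Clopper-Pearson (shares) and conditional binomial (ratios). Genes whose groups summed to 10 or more UMIs were compared and called at 2-fold. Free RNA shares come from barcodes of rank 10001 to 50000. Clusters came from scanpy 1.11.5 and leidenalg 0.10.2 (2000 variable genes, 30 principal components, 15 neighbours, resolution 1, with a mean log2 difference of at least 0.5 and 25% of cells for a name). Python 3.11.15, numpy 2.4.6, scipy 1.17.1 and matplotlib 3.10.9 were used. The ratios and their intervals were tested on simulated counts with no spread between cells, and grouping and thinning on small examples. The genes named are the 7 members, T, Kdr and Pou5f1, the 2 genes at each end of every pathway list with at least 30 UMIs, and the 3 genes most like each member with at least 50 CPM in some cluster. Some genes that this rule picks are not reported here. The members, lists and groupings were chosen with earlier results of these data known. Alternatives changed the cell filters, doublets, scaling, thinning, fold, count minimum and groups.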

Additional observations from a re-analysis of the deposited data

How the results depend on the processing

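Of the 28 log2 ratios (7 members, 4 comparisons), the 11 past 2-fold kept their sign under every alternative run, as did 11 of the 17 others. No value past 2-fold changed direction. In cells thinned to 6000 UMIs, 1 member in place of 2 was past 2-fold by Kdr group. Thinning also took Mesp1 under 2-fold by T group (log2 ratio 0.91) and by state (-0.73), and Cdx2 by Pou5f1 group (-0.38). At 1.5-fold, 5 members in place of 3 were past it by T group and 4 in place of 2 by Kdr group (1 higher, 3 lower). The share of all genes past 1.5-fold in either direction was 23.9% and 28.6%. The share of cells with Mesp1, 67.5% as counted, was 69.6% when the cell minimum was doubled, 52.5% when thinned and 55.5% with at least 2 UMIs. For Mixl1 (67.1%) these were 69.4%, 44.8% and 52.8%, and for Mesp1 with Mixl1 (52.0%) 54.7%, 30.6% and 39.1%. Mesp1 with Mesp2 (27.5%) came to 12.2% thinned and 17.3% with at least 2 UMIs, and Gsc with Lhx1 (25.2%) to 6.55% and 12.6%. The highest Mesp1 level of a cluster was 1117 CPM in place of 1157 with the members, T, Kdr and Pou5f1 kept in the clustering. A setting chosen after seeing the data left out the 379 cells of the naive pluripotent-like, definitive endoderm-like and epithelium-like clusters. The epiblast-like and germ cell-like clusters were kept. In that setting 3, 3, 4 and 3 members were past 2-fold by T, Kdr, Pou5f1 and state, with Mesp1 added by Kdr and Lhx1 by Pou5f1. Thinning leaves fewer UMIs per cell, so some cells with T or Kdr fall among those without. No paired analysis was possible because each group has 1 library.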
